A study of Mus musculus with 24 samples.

Results

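The liver X receptors (LXRs), the ATP-binding cassette (ABC) lipid transporters and 2 further proteins of cholesterol handling were followed as a set of 9 genes in the murine hepatocyte line AML-12. The genes were chosen by name from the 55487 genes of the count table and were *Nr1h2*, *Nr1h3*, *Abca1*, *Abcg1*, *Abca8a*, *Abca8b*, *Abca5*, *Mylip* and *Scarb1*. Of these, 8 had counts in all 24 libraries and were tested in every comparison, whereas *Abcg1* had no count in any library. LXRs are nuclear receptors that bind oxysterols and, paired with retinoid X receptors, switch on genes that lower the sterol load of a cell. ABCA1 and ABCG1 carry cholesterol and phospholipid out of the cell to lipid-poor apolipoprotein A-I and to high-density lipoprotein (HDL), MYLIP (also called IDOL) is a ubiquitin ligase of lipoprotein uptake, and SCARB1 (SR-BI) takes up cholesterol from HDL at the hepatocyte surface. These routes are part of how cells handle cholesterol. *Bmal1*, a core activator of the circadian clock, and *Chrebp*, a glucose-sensing activator of lipogenesis, were the genes silenced in this experiment.

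Expression was measured by BRB-seq, which barcodes RNA samples, pools them early and sequences the 3′ end of each mRNA. AML-12 is an established hepatocyte line, and all groups were kept in medium without dexamethasone and with charcoal/dextrane-treated serum. BSA stands for bovine serum albumin, and the palmitate was given as a complex with it. BSA cells, the albumin control, received no palmitate and no esiRNA. PAL cells received 0.25 mM palmitate and no esiRNA. The remaining groups had the same palmitate and 24 h of silencing with esiRNA, a pool of short interfering RNAs cut from a long one by an endoribonuclease. The esiRNA of CON was aimed at *Egfp*, which is foreign to mouse cells, and dosed at 200 nM. BMAL1 cells were given 100 nM aimed at *Bmal1*, and CHREBP cells 100 nM aimed at *Chrebp*. BOTH cells were given the pair, at a total of 200 nM. Each group had 4 libraries. The labels do not say that these came from separate cultures, so that p-values measure the spread between these libraries, which may be technical. By the library names, column 1 held BSA and PAL, column 2 held CON with BMAL1, and column 3 held CHREBP with BOTH. Rows A to D held BSA, CON and CHREBP, and rows E to H the other groups.

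Libraries held between 5399700 and 11237474 counts in genes. All 10 of the hepatocyte markers examined had a summed count of at least 25, and their summed level lay between 48440 and 62851 normalized counts in every library, most of it from the keratins *Krt18* and *Krt8*. A normalized count is a count divided by the size factor of its library. Of 7 stellate markers 2 reached that count, and the endothelial markers *Cdh5*, *Kdr* and *Tek* were at 0 counts. *Arntl*, the gene symbol of *Bmal1*, had 30.1 to 57.5 normalized counts in CON, 22.3 to 32.9 in BMAL1 and 16.6 to 30.9 in BOTH. *Mlxipl*, the gene symbol of *Chrebp*, had 29.0 to 44.4 in CON, 22.1 to 32.7 in CHREBP and 11.5 to 21.9 in BOTH. The silenced groups had lower means, and for both genes the range of the single silencing overlapped that of CON. The range of BOTH overlapped that of CON for *Arntl* as well, and lay below it for *Mlxipl*. The summed level of 10 interferon markers differed between groups, at 249 to 328 normalized counts over the BSA libraries and 211 to 267 over PAL. It was 781 to 6935 over CON, 815 to 1348 over BMAL1, 20656 to 42932 over CHREBP and 41023 to 63512 over BOTH.

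On GRCm38, *Nr1h2* (ENSMUSG00000060601) lies at chr7:44549616-44553951 and *Nr1h3* (ENSMUSG00000002108) at chr2:91184061-91202834, both on the minus strand. *Abca1* (ENSMUSG00000015243) lies at chr4:53030787-53159895, minus strand, and *Abcg1* (ENSMUSG00000024030) at chr17:31057675-31117988, plus strand. *Abca8b* (ENSMUSG00000020620, chr11:109932190-109995845), *Abca8a* (ENSMUSG00000041828, chr11:110025634-110095978) and *Abca5* (ENSMUSG00000018800, chr11:110269369-110337716) belong to 1 row of ABCA genes on the minus strand, with *Abca9* and *Abca6* between *Abca8a* and *Abca5*. *Mylip* (ENSMUSG00000038175) lies at chr13:45389742-45412022, plus strand, and *Scarb1* (ENSMUSG00000037936) at chr5:125277087-125341094, minus strand. Exons of *Abca8b* overlap the antisense gene *Gm11697*, which had 0 counts in all libraries. Exons of *Nr1h3* overlap *Gm13783* on the same strand, which had 1 count in all libraries together.

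Promoter windows, running from 250 bases before to 50 bases after a start, were matched for 7 of the 9 genes in the RefSeq table of GRCm38.p6. The windows of *Abca1*, *Abca8a* and *Abca8b* are shown because these 3 genes fell with palmitate, and because BMAL1 and CHREBP belong to the family of factors that read E-boxes. Capitals mark the E-box CACGTG, and each sequence is given 5′ to 3′ on the strand of the gene.
Abca1, chr4:53159846-53160145, minus strand: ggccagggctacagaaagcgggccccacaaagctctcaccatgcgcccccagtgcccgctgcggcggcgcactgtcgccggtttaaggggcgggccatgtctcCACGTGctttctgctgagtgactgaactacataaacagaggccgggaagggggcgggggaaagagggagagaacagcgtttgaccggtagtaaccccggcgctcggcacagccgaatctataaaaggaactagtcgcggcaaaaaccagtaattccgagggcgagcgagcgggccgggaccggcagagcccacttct
Abca8a, chr11:110095888-110096187, minus strand: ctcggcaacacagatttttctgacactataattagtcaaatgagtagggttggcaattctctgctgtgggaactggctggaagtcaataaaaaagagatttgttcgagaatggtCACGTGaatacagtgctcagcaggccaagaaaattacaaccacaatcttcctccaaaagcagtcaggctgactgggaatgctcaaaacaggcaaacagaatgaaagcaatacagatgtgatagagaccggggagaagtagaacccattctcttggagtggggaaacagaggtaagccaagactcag
Abca8b, chr11:109995796-109996095, minus strand: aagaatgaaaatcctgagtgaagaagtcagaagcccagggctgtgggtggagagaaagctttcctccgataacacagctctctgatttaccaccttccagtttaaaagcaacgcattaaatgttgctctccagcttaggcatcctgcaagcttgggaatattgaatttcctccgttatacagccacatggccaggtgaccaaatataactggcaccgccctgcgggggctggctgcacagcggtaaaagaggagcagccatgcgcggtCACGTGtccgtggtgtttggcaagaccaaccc
With the annotated start base as position 0, the E-box stood at -147 to -142 in *Abca1*, at -136 to -131 in *Abca8a* and at 18 to 23 in *Abca8b*. The letters were found in none of the windows of *Abca5*, *Nr1h2*, *Nr1h3* and *Mylip*, while 7.15% of 32851 promoters held them on either strand. *Abca1* and *Abca8b*, which hold the letters, and *Abca5*, which does not, were lower in BOTH than in BMAL1 without overlap. For *Abca8a*, which holds the letters, these groups overlapped. A link between the letters and any of these levels was not tested. The LXR element DR4, searched as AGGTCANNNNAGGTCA on both strands with at most 2 mismatches, was found in 0 windows of these genes and in 3.02% of all promoters. A match describes the letters of the window and is not evidence of binding. The absence of a match says nothing of elements with more mismatches inside these windows or of sites elsewhere.

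The 2 LXR genes themselves varied little. *Nr1h2*, which encodes the widely expressed LXRβ, had 771, 785, 736 and 765 normalized counts in BSA and 727, 789.6, 737 and 731 in PAL. Its levels were 739.7, 829, 726 and 901 for CON and 787, 770.3, 817 and 744 for BMAL1. They were 772, 794, 839.8 and 936 for CHREBP and 709, 757, 953 and 854 for BOTH. All groups overlapped. Neighbours in the order of means, which ran from CHREBP down through BOTH, CON, BMAL1 and BSA to PAL, differed by less than the larger of their SDs. The log2 fold changes of *Nr1h2* ran from -0.03 in BMAL1 against CON to 0.09 in CON against PAL over all comparisons, and none was past DESeq2 *Padj* 0.1 (*Padj* is the Benjamini-Hochberg adjusted p over all genes tested, and genes under 0.1 are called).

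*Nr1h3*, which encodes LXRα, the form of high expression in liver, had 149, 186, 162 and 147 normalized counts in BSA and 133, 134, 146 and 128 in PAL. The highest PAL library was thus just below the lowest BSA library. Its levels were 166, 181, 154 and 159 for CON and 176, 165, 172 and 181 for BMAL1. They were 129.6, 151, 160.0 and 162 for CHREBP and 192, 139.7, 136 and 143 for BOTH. All esiRNA groups overlapped CON, and PAL lay below CON without overlap. Despite the separation in these 2 comparisons, *Nr1h3* was not called, with a log2 fold change of -0.25 (SE 0.14, *Padj* = 0.294 in DESeq2) in PAL against BSA and 0.29 (SE 0.13, *Padj* = 0.388) in CON against PAL. Its level was highest in BMAL1 (174 ± 6.90, SD, n = 4) and lowest in PAL (135 ± 7.76), and of the neighbours in order CHREBP and PAL alone differed by more than the larger SD.

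**Figure D1:**
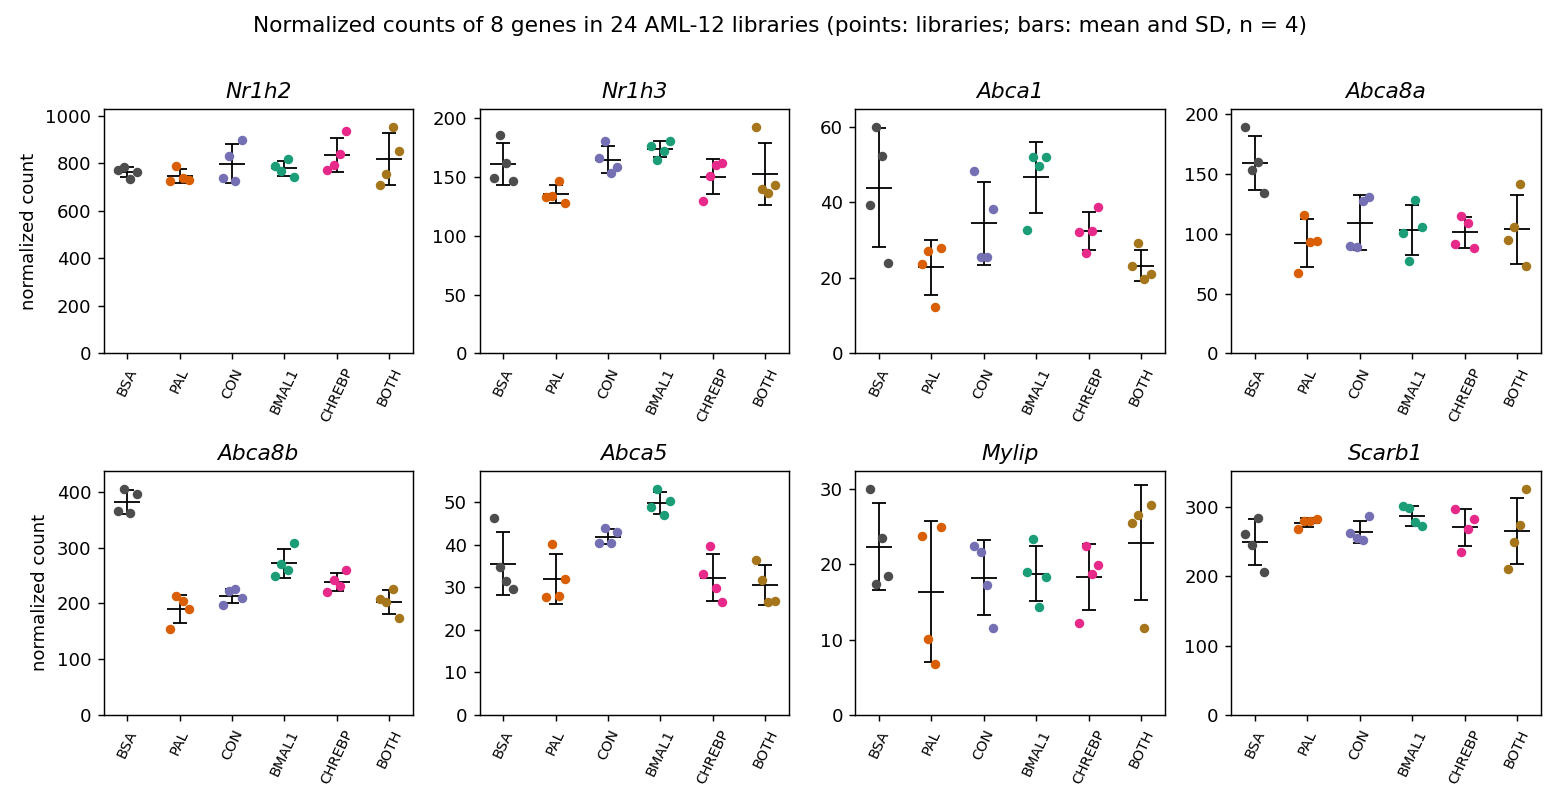
Normalized counts (y axis, linear, from 0) of the 8 genes with counts in 6 groups (x axis). Each point is 1 library, and the bars give mean and SD (n = 4). *Abca8b* was between 362 and 405 in BSA and at or below 308 in all other libraries.

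To examine the effect of palmitate, PAL was compared with BSA. *Abca1*, *Abca8a* and *Abca8b* were lower with palmitate. In the fit *Abca1* fell by 48.0%, *Abca8a* fell by 41.6% and *Abca8b* fell by 49.7%. In all, 3 of 8 genes tested were called and all 3 fell, beside 14.3% of all 12827 genes tested (called in either direction). The other 5 were not called. The median log2 fold change of the 8 genes was -0.35, beside 0.00 for all genes.

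*Abca8b*, a transporter of the ABCA subfamily linked to HDL cholesterol, had 366, 405, 362 and 396 normalized counts in BSA and 154, 213, 204 and 189.7 in PAL. All BSA libraries lay far above all PAL libraries. The log2 fold change was -0.99 (SE 0.11, *Padj* = 4.52e-16 in DESeq2). *Abca8a*, its neighbour and closest relative here, had 189, 154, 161 and 134 normalized counts in BSA and 67.3, 116, 92.8 and 94.1 in PAL. Again the groups did not overlap, and the log2 fold change was -0.78 (SE 0.17, *Padj* = 0.000145 in DESeq2). The transcripts of the pair were identical at 75.0% of aligned bases and shared 105 of 5814 windows of 50 bases, but none in the last 500 bases of either transcript, the end that BRB-seq reads. With the counts of both genes summed into 1, the log2 fold change was -0.93 (SE 0.10, *Padj* = 1.3e-16 in DESeq2).

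*Abca1* had 39.4, 60.0, 52.3 and 24.0 normalized counts in BSA and 23.8, 27.2, 12.3 and 28.0 in PAL. The groups overlapped, since the lowest BSA library fell within the range of PAL, and raw counts were low, between 11 and 62 over the experiment. The log2 fold change was -0.94 (SE 0.33, *Padj* = 0.0394 in DESeq2). This call rested on single libraries. Without BSA replicate 2, BSA replicate 3 or PAL replicate 3 the DESeq2 *Padj* was 0.232, 0.146 and 0.178, and the log2 fold change was -0.76, -0.85 and -0.74. The calls of *Abca8a* and *Abca8b* held under all 13 alternative settings run, with log2 fold changes between -0.90 and -0.66 and between -1.05 and -0.91.

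Of the genes not called with palmitate, *Abca5*, a transporter of late endosomes and lysosomes, had 46.2, 34.8, 31.6 and 29.7 normalized counts in BSA and 27.7, 40.2, 28.0 and 31.9 in PAL, and the groups overlapped. *Mylip* had 30.0, 17.4, 23.4 and 18.4 in BSA and 23.8, 10.1, 6.71 and 24.9 in PAL, a wide spread at 6 to 35 raw counts. *Scarb1* had 261, 246, 285 and 207 in BSA and 268, 279.6, 281 and 283 in PAL. The 95% intervals of the log2 fold change were -0.71 to 0.41 for *Abca5*, -1.26 to 0.37 for *Mylip* and -0.07 to 0.38 for *Scarb1*. All 3 intervals included changes of either sign. In all, 3 of the 8 genes had groups without overlap in this comparison (*Abca8a*, *Abca8b* and *Nr1h3*), beside 15.1% of all genes tested. In bulk libraries, fewer cells of a type and less RNA per cell cannot be told apart. Of 7 macrophage markers, 3 were tested with palmitate and 1 was called, *Cd14*, which fell from 898 ± 37.1 to 615 ± 44.2 normalized counts (SD, n = 4). It made up most of their summed level, which was 866 to 951 in BSA and 566 to 669 in PAL, while *Adgre1* and *Clec4f* were at 0, and their part in the result was not tested. Of 9 hepatocyte markers tested, 4 fell (*Alb* -0.97, *Trf* -0.58, *Ttr* -0.30 and *Serpina1a* -0.24) and 2 rose (*Krt18* 0.45 and *Krt8* 0.37), and their part was not tested either. The stellate marker *Des* (-2.59, 1 of 2 tested) and the interferon marker *Ifit1* (-0.90, 1 of 6 tested) also fell. Palmitate cannot be told apart from the rows of the libraries.

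Genes from lists of the surrounding pathway were read against the same 14.3% of all genes called with palmitate. Of 12 LXR target genes tested, 2 rose and 1 fell. *Apoe*, an acceptor of effluxed cholesterol, went from 3701 ± 167 to 1943 ± 171 normalized counts (SD, n = 4), or -0.92 on the log2 scale (SE 0.07, *Padj* = 2.63e-41 in DESeq2), while the fatty acid desaturases *Scd1* and *Scd2* rose by 0.41 and 0.44. Of the LXR partners and cofactors, *Rxra*, the partner receptor (-0.28), and the coactivator *Ncoa1* (-0.38) fell. Of 4 oxysterol and desmosterol enzymes, 2 fell. *Cyp27a1*, which makes the LXR ligand 27-hydroxycholesterol, fell by 0.49 on the log2 scale, and *Ch25h*, the enzyme of 25-hydroxycholesterol, was named after its values were seen and went from 33.4 ± 8.76 to 2.34 ± 2.72 normalized counts. Of 14 genes of HDL and cholesterol trafficking, 1 rose (*Stard4*, 0.45) and 3 fell, among them *Npc2* (-0.42) and *Npc1* (-0.38), which move cholesterol out of lysosomes. Among other transporters, *Abcg2* rose in 5 ABCA and ABCG genes tested (0.26), and of 6 further lipid ABC transporters 2 rose, *Abcb1a* by 0.89, and *Abcc1* fell by 0.52. *Abcg5* and *Abcg8*, the biliary sterol pair and known LXR targets, had at most 2 counts in any library and were not tested. *Lrp8* (1.12), a receptor among the MYLIP substrates, *Abcb1b* (1.69) and *Stard3* (-0.26) were also called and were named after their values were seen.

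**Figure D2:**
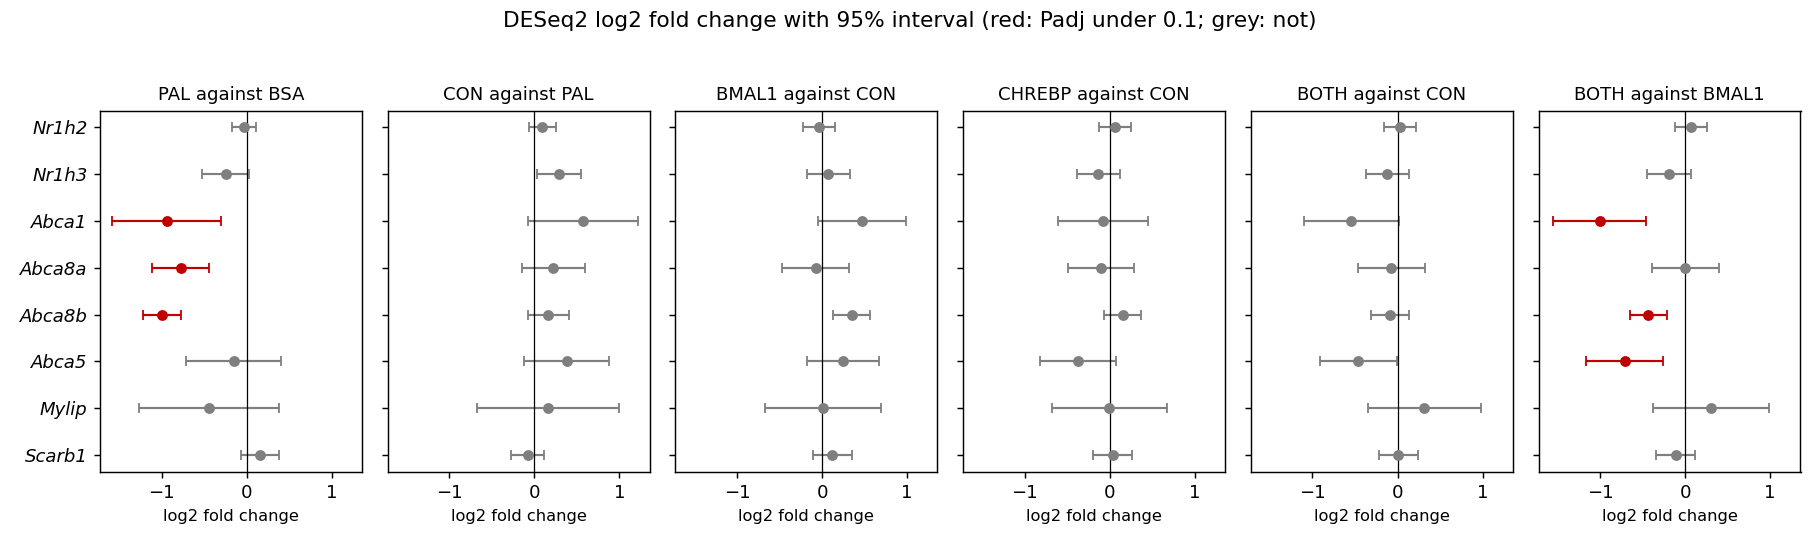
DESeq2 log2 fold change (x axis) with 95% interval for the 8 genes tested (rows) in 6 comparisons (panels). Red points are called at *Padj* under 0.1. With palmitate, *Abca1*, *Abca8a* and *Abca8b* lie to the left of 0, and in BOTH against BMAL1 *Abca1*, *Abca8b* and *Abca5* do.

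CON was compared with PAL to examine transfection with the control esiRNA, which was also a change of library column and rows and cannot be told apart from them. No gene of the set was called by DESeq2 among the 8 tested, beside 2.51% of all genes. At an unadjusted p under 0.05 there was 1 (*Nr1h3*, above), and edgeR called 0, also with 1 at an unadjusted p under 0.05. *Abca5* was higher in CON, with 40.4, 43.8, 40.3 and 42.9 normalized counts, all just above the highest PAL library at 40.2, and had a log2 fold change of 0.38 (SE 0.26, *Padj* = 0.665 in DESeq2). With *Nr1h3* it was 1 of 2 genes whose groups did not overlap, beside 7.16% of all genes. *Apoe* had a log2 fold change of 0.52 (SE 0.07, *Padj* = 5.61e-10 in DESeq2) in the same comparison, and *Soat1*, which stores cholesterol as ester, of 0.46, and *Npc2* of 0.26. Of 9 interferon markers tested 8 rose, and of 9 hepatocyte markers *Alb* rose (0.63) and *Krt18* fell (-0.15), and their part was not tested. This comparison and that of PAL with BSA share the PAL libraries.

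To find what *Bmal1* regulates in the presence of palmitate, BMAL1 was compared with CON. No gene of the set was called by DESeq2, beside 0.49% of all genes, and 5 of 8 received an adjusted p. At an unadjusted p under 0.05 there was 1, *Abca8b*, and edgeR called 0 and had 1 at that level. *Abca8b* had 197, 223, 225 and 209.8 normalized counts in CON and 248, 269.9, 260.5 and 308 in BMAL1. All BMAL1 libraries were above all CON libraries, and the log2 fold change was 0.35 (SE 0.11, *Padj* = 0.140 in DESeq2). It was called with all 24 libraries in the fit (DESeq2 *Padj* = 0.088) and without BOTH replicate 4 (0.0964), and the summed counts of *Abca8a* and *Abca8b* gave 0.22 (SE 0.11, *Padj* = 0.664 in DESeq2).

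*Abca1* had 48.5, 25.6, 25.5 and 38.3 normalized counts in CON and 32.6, 52.1, 49.8 and 52.1 in BMAL1. Most BMAL1 libraries exceeded all CON libraries, but 1 lay within their range. The log2 fold change was 0.47 (SE 0.26), and the gene received no adjusted p because its mean was under the limit of independent filtering. *Abca5* had 48.9, 53.1, 46.9 and 50.3 in BMAL1, all above the 40.3 to 43.8 of CON. Its log2 fold change was 0.25 (SE 0.22) with no adjusted p. With *Abca8b* it made 2 genes without overlap, beside 5.43% of all genes. The remaining genes had log2 fold changes between -0.07 (*Abca8a*) and 0.12 (*Scarb1*). *Bmal1* esiRNA cannot be told apart from rows or dose, which was 200 nM in CON and 100 nM in BMAL1. Of 10 interferon markers 8 fell, with a median log2 fold change of -2.33 over the list, and of 9 hepatocyte markers *Ttr* rose (0.46), and their part was not tested.

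The effect of *Chrebp* silencing was examined by comparing CHREBP with CON. No gene of the set was called by DESeq2, beside 3.42% of all genes, none had an unadjusted p under 0.05, and edgeR called 0 with none at that level. *Abca5* was the 1 gene without overlap, beside 8.58% of all genes, with 33.2, 39.6, 29.8 and 26.6 normalized counts in CHREBP, all under the lowest CON library at 40.3, and a log2 fold change of -0.37 (SE 0.23, *Padj* = 0.599 in DESeq2). *Abca1* had 32.1, 26.7, 32.3 and 38.8 in CHREBP, within the range of CON, and *Abca8b* had 220.4, 243, 231 and 259, which overlapped it. Their 95% intervals were -0.61 to 0.45 and -0.06 to 0.37. Among pathway genes, *Scd1* (-0.67) and *Scd2* (-0.46) fell, whereas *Soat1* (0.75) and *Npc2* (0.28) rose. *Chrebp* esiRNA cannot be told apart from column or dose here, and the part of the interferon markers, higher in CHREBP, was not tested.

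With both genes silenced, BOTH was compared with CON. Again no gene of the set was called by DESeq2, beside 9.73% of all genes. At an unadjusted p under 0.05 there was 1 (*Abca5*), and edgeR called 0 with 2 at that level. *Abca5* had 36.5, 31.8, 26.6 and 26.9 normalized counts in BOTH, all below CON, and its log2 fold change was -0.46 (SE 0.23, *Padj* = 0.263 in DESeq2). It was the 1 gene without overlap, beside 10.9% of all genes. *Abca1* had 23.2, 29.2, 19.6 and 21.1 in BOTH, of which 3 lay under the lowest CON library. Its log2 fold change was -0.54 (SE 0.28, *Padj* = 0.295 in DESeq2). Of 14 LXR target genes tested 1 rose (*Smpdl3a*, 0.51) and 3 fell, with *Scd2* at -0.65 and *Scd1* at -0.43, and of 14 trafficking genes 4 rose, led by *Soat1* (0.90) and *Npc2* (0.44). The others called, named after their values were seen, were *Apoe* (-0.31), *Stard3* (0.35), *Scarb2* (0.30) and, of the MYLIP substrates, *Lrp8* (-1.19). *Med1*, a coactivator, rose by 0.31. Of 9 hepatocyte markers tested, 3 fell (*Serpina1a* -0.35, *Trf* -0.28 and *Hnf4a* -0.17). The silencing cannot be told apart from column and rows, and the part of the hepatocyte and interferon markers was not tested.

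BOTH and BMAL1 both received *Bmal1* esiRNA and differ by the addition of *Chrebp* esiRNA. *Abca1*, *Abca8b* and *Abca5* were lower in BOTH, so that 3 of 8 genes tested were called, all lower, beside 10.4% of all 13883 genes tested. The same 3 genes were those without overlap, beside 11.3% of all genes. The median log2 fold change of the 8 genes was -0.15, beside -0.02 for all genes. For *Abca1*, the BOTH libraries at 19.6 to 29.2 normalized counts all lay under the BMAL1 libraries at 32.6 to 52.1, with a log2 fold change of -1.01 (SE 0.28, *Padj* = 0.00644 in DESeq2). *Abca8b* had 208, 202, 225 and 175 in BOTH against 248 to 308 in BMAL1, with a log2 fold change of -0.43 (SE 0.11, *Padj* = 0.00234 in DESeq2). *Abca5* had 26.6 to 36.5 in BOTH against 46.9 to 53.1 in BMAL1, with a log2 fold change of -0.71 (SE 0.23, *Padj* = 0.0286 in DESeq2).

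These 3 calls held under every alternative setting run, 23 for *Abca1* and *Abca5* and 22 for *Abca8b*. *Abca8a*, in contrast to its neighbours, had 100.5, 77.6, 128 and 106 normalized counts in BMAL1 and 95.1, 106, 142 and 73.0 in BOTH, with overlap and a 95% interval of -0.39 to 0.40. The summed counts of *Abca8a* and *Abca8b* had a log2 fold change of -0.30 (SE 0.11, *Padj* = 0.078 in DESeq2). *Mylip* had 19.0, 23.4, 14.4 and 18.3 in BMAL1 and 25.4, 26.5, 11.5 and 27.8 in BOTH, and *Scarb1* had 301, 299, 279 and 272 in BMAL1 and 211, 250.1, 275 and 326 in BOTH, with overlap in both genes. *Chrebp* esiRNA, total dose (100 nM in BMAL1, 200 nM in BOTH) and library column cannot be told apart here. The summed level of the interferon markers moved with the same groups, from at most 1348 normalized counts in BMAL1 to at least 41023 in BOTH, and its part in these results was not tested. Of 9 hepatocyte markers tested, 4 were lower in BOTH (*Ttr* -0.49, *Serpina1a* -0.33, *Trf* -0.25 and *Hnf4a* -0.18) and none was higher, and their part was not tested.

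Pathway genes called in BOTH against BMAL1, where 10.4% of all genes were called, included *Scd2* (log2 fold change -0.63) and *Apoe* (-0.39), which fell, and *Smpdl3a* (0.59), which rose, making 3 of 14 LXR target genes. *Sult2b1*, which sulfates oxysterols, fell (-0.43). *Ch25h*, again named after its values were seen, had 1.76 ± 1.28 normalized counts in BMAL1 and 12.5 ± 1.65 in BOTH (SD, n = 4). Of 14 trafficking genes 3 rose and 1 fell. *Soat1* went from 223 ± 13.8 to 534 ± 46.6 normalized counts, or 1.26 on the log2 scale (SE 0.13, *Padj* = 2.19e-19 in DESeq2), *Scarb2* rose by 0.46, and *Gramd1b*, a carrier of cholesterol from the plasma membrane, fell (-0.45). Of the MYLIP group *Ube2d3*, an E2 enzyme of ubiquitin transfer, rose by 0.18. *Lrp8* (-0.78) and *Npc2* (0.32) complete the called genes and were named after their values were seen.

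**Figure D3:**
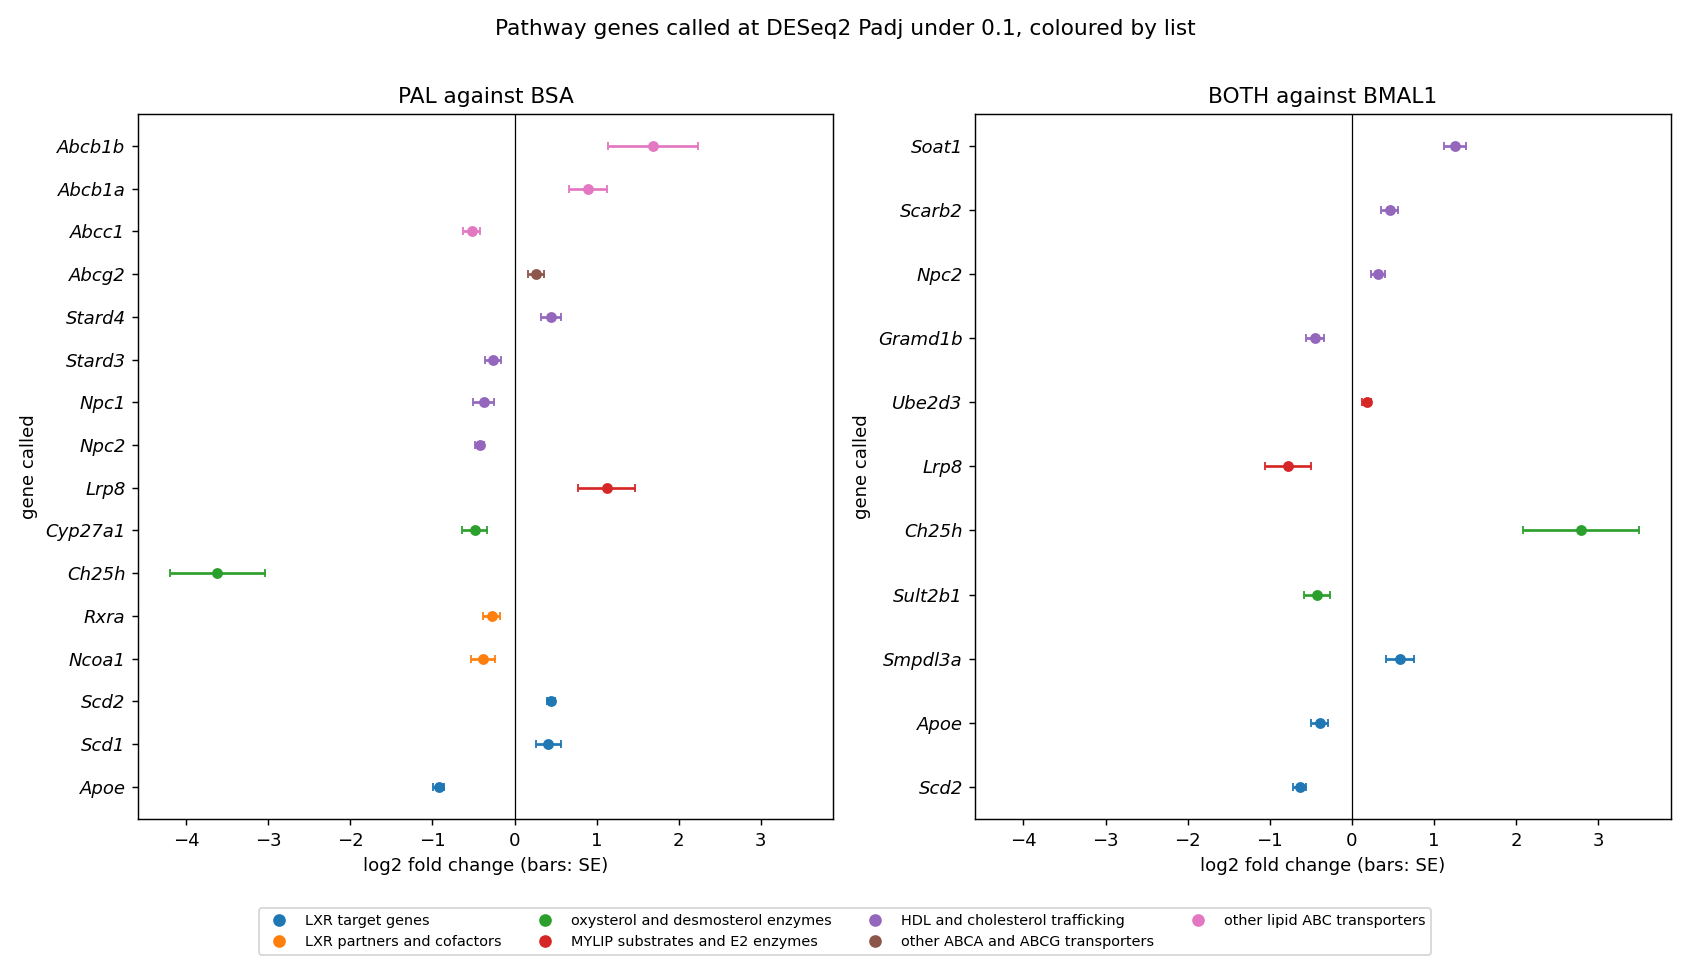
Log2 fold change (x axis, bars are SE) of pathway genes called by DESeq2 at *Padj* under 0.1 in PAL against BSA (left) and BOTH against BMAL1 (right), coloured by list. *Ch25h*, at few counts, was the gene with the most negative value with palmitate and the one with the highest value in BOTH against BMAL1 (2.79), where *Soat1* was at 1.26.

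A question of the design was whether *Bmal1* and *Chrebp* interact. The difference made by *Bmal1* esiRNA with *Chrebp* esiRNA (BOTH against CHREBP) was set against that without it (BMAL1 against CON). In BOTH against CHREBP, no gene of the set was called by DESeq2, beside 0.994% of all genes, 5 of 8 received an adjusted p, and 1 (*Abca8b*) had an unadjusted p under 0.05. edgeR called 0 with 1 at that level, and no gene had groups without overlap, beside 3.41% of all genes. *Abca8b* was higher with *Bmal1* esiRNA alone and lower with it on top of *Chrebp* esiRNA, by a log2 fold change of 0.35 (SE 0.11) and -0.24 (SE 0.11), neither called. The interaction, which is the difference of these effects, was -0.58 (SE 0.16, 95% interval -0.89 to -0.28, DESeq2 *Padj* = 0.0222). *Abca8b* was the 1 gene of 8 called for the interaction, beside 1.47% of all genes, and 5 of the 8 received an adjusted p.

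The interaction of *Abca8b* was called in all 21 alternative settings that kept the gene separate, with values between -0.64 and -0.52 and a DESeq2 or edgeR *Padj* between 0.00975 and 0.0999. The upper end was reached without BMAL1 replicate 4. The call was lost when *Abca8a* and *Abca8b* were summed (-0.37, SE 0.16, *Padj* = 0.364 in DESeq2). *Abca1* had an interaction of -0.93 (SE 0.39) at an unadjusted p of 0.0172 and received no adjusted p. For *Abca5* it was -0.34 (SE 0.32), and for *Abca8a*, *Nr1h2*, *Nr1h3*, *Mylip* and *Scarb1* between -0.15 and 0.31. Each of these effects lay within 1 library column and across rows. The interaction cannot be told apart from total esiRNA dose, since it sets CON and BOTH at 200 nM against BMAL1 and CHREBP at 100 nM. *Abca8b* was at 272 and 238 in the 100 nM groups and at 214 and 203 in the 200 nM groups. Of 10 interferon markers 9 were called for the interaction, all positive, with a median over the list of 3.17, and of 9 hepatocyte markers *Ttr* was called (-0.35). Their part in the interaction of *Abca8b* was not tested.

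**Figure D4:**
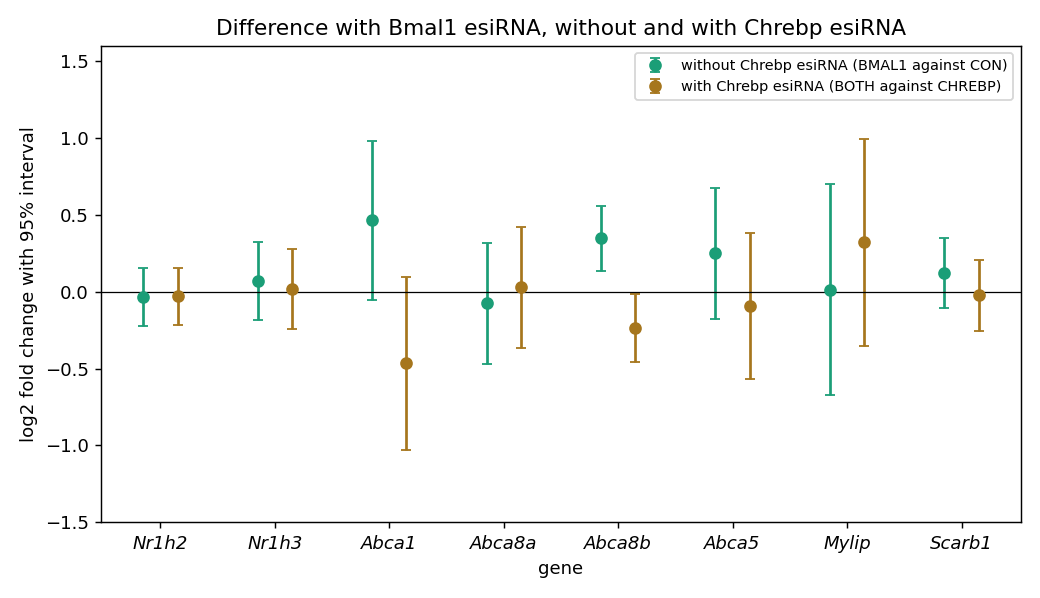
Log2 fold change with 95% interval (y axis) for *Bmal1* esiRNA without (green) and with (brown) *Chrebp* esiRNA, for 8 genes (x axis). For *Abca8b* the intervals lay on opposite sides of 0, at 0.13 to 0.56 and -0.46 to -0.02.

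In a likelihood ratio test over the 4 esiRNA groups, *Abca8b* (DESeq2 *Padj* = 0.00917), *Abca1* (0.0494) and *Abca5* (0.0638) were called, which is 3 of 8 genes tested, beside 9.92% of all genes. The calls of *Abca1* and *Abca5* depended on single libraries. *Abca1* was lost without BMAL1 replicate 2, 3 or 4 or BOTH replicate 3, at *Padj* 0.189, 0.154, 0.189 and 0.140, and *Abca5* was lost in 8 of 16 such fits, with *Padj* from 0.106 to 0.189 among them. *Abca8b* was lost without BMAL1 replicate 4 (DESeq2 *Padj* = 0.113), and the summed counts of *Abca8a* and *Abca8b* were not called (DESeq2 *Padj* = 0.300).

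The order of levels across the 6 groups differed from gene to gene. *Abca8b* ran from BSA (382 ± 21.8 normalized counts, SD, n = 4) through BMAL1 (272 ± 25.7), CHREBP (238 ± 16.7), CON (214 ± 12.8) and BOTH (203 ± 20.9) to PAL (190.2 ± 25.7), and CON, BOTH and PAL did not differ beyond the larger SD of neighbours. *Abca8a* was at 159 ± 22.7 in BSA, and its other groups, between 92.5 and 109, did not differ beyond it. *Abca5* was highest in BMAL1 (49.8 ± 2.61), without overlap with CON (41.9 ± 1.78), and from CON down to BOTH (30.4 ± 4.70) neighbours did not differ beyond the larger SD. *Abca1* ran from BMAL1 (46.6 ± 9.43) and BSA (43.9 ± 15.7) to BOTH (23.3 ± 4.19) and PAL (22.8 ± 7.24), and of its neighbours only CHREBP and BOTH differed by more than the larger SD. For *Mylip*, with means from 16.4 in PAL to 22.8 in BOTH, and *Scarb1*, with means from 249.6 in BSA to 288 in BMAL1, no neighbours did.

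*Abca8a* and *Abca8b* had a Pearson correlation of 0.71 over the 24 libraries on a log2 scale, *Abca1* and *Abca8b* of 0.54, and *Abca1* and *Abca5* of 0.52. The genes whose pattern was most like that of *Abca8b* among 9375 genes were *Acox2* (0.88), *Pipox* (0.87) and *Mgst1* (0.86). *Acox2*, a peroxisomal oxidase of bile acid synthesis, averaged 1598 normalized counts over BSA and 434 over PAL, and between 497 (CHREBP) and 622 (BMAL1) over the esiRNA groups. For *Abca1* they were *Zfp90* (0.74), *Zfp560* (0.71) and *Pld3* (0.70), and for *Abca5* they were *Pxylp1* (0.78), *Tcaf1* (0.78) and *Mbd5* (0.75). These correlations run over libraries that share groups, columns and depth, and are given as a description.

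*Abcg1*, the transporter that loads HDL with cholesterol, was at 0 counts in all 24 libraries. At 3 counts per library this allows a level of up to 0.267 to 0.556 CPM, the usual depth-scaled count,, and 0.0161 CPM over all libraries together. Such limits cover counting error only. In the row of ABCA genes on chromosome 11, *Abca9* had at most 7 counts and *Abca6* at most 23 counts in any library, beside 117 to 427 for *Abca8b*, 51 to 221 for *Abca8a* and 21 to 65 for *Abca5*, so that depth limits what can be said of the first 2 genes.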

How the data were processed

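BRB-seq libraries of AML-12 cells, 24 in all, were analysed. The deposited values are raw whole-number counts per gene and library, which the authors made by demultiplexing the reads, aligning with STAR to the mouse genome mm10 and assigning reads to genes (HTSeq and featureCounts are both named in their processing notes). Versions, annotation release, strand and UMI handling are not given in the sources used here, so that genes overlapping another gene or resembling a paralog are uncertain. The 5 HTSeq summary lines were kept out of library sizes. Reads not aligned made up 24.9% to 28.0% and reads in no gene 5.11% to 6.47% of a library.

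DESeq2 1.42.0 (R 4.3.3) was the test, with the filter and threshold of the study: a gene entered with 25 or more counts summed over the fitted libraries and was called at an adjusted p under 0.1. PAL with BSA, and CON with PAL, were fitted as 8 libraries each, and the 16 esiRNA libraries shared 1 fit for the other comparisons, the interaction and the likelihood ratio test. Printed normalized counts were scaled over all 24 libraries by DESeq2 size factors, and intervals are Wald 95% intervals. Alternatives were edgeR 4.0.16 (quasi-likelihood, TMM), DESeq2 with TMM size factors, no filter, all 24 libraries, only the 2 groups, a replicate block, leaving out each library, and *Abca8a* and *Abca8b* summed. The scripts were tested on simulated data. Gene counts per library had a median of 7872956, and 3 counts correspond to 0.267 to 0.556 CPM.

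All 9 genes of the set were named. From 7 pathway lists, the text names up to 2 largest rises and 2 largest falls per list and comparison among called genes whose normalized counts averaged 50 or more, and, for *Abca1*, *Abca8b* and other genes of the set called in an esiRNA comparison, the 3 genes with the highest Pearson correlation of log2(normalized count + 1). The genes and lists were chosen with earlier results of these data known. Some genes of the lists are not reported here. Gene coordinates came from GENCODE M21 (GRCm38), which held 55141 of 55487 identifiers, and promoter windows from RefSeq (GRCm38.p6). Replicate pairs all differed by more than sampling noise (chi-square per degree of freedom 2.69 to 23.1).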

Additional observations from a re-analysis of the deposited data

Results flagged for a closer look

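In 48 sets of 4 libraries (8 genes in 6 groups), 1 library stood far from the other 3 in 4 sets. Chance gives such a library in about 1 in 20 groups. *Abca1* was at 32.6 normalized counts in BMAL1 replicate 1, the lowest of its group, with the others between 49.8 and 52.1. *Nr1h2* was at 789.6 in PAL replicate 2, the highest of its group, with the others between 727 and 737. *Nr1h3* was at 192 in BOTH replicate 1, the highest, with the others between 136 and 143. *Mylip* was at 11.5 in BOTH replicate 3, the lowest, with the others between 25.4 and 27.8.

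The effect of *Bmal1* esiRNA on *Abca8b* differed between cells without and with *Chrebp* esiRNA, by -0.58 on the log2 scale (SE 0.16, DESeq2 interaction *Padj* = 0.0222). This difference cannot be told apart from total esiRNA dose, which was 200 nM in CON and BOTH and 100 nM in BMAL1 and CHREBP.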

How the results depend on the processing

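Counts of genes called moved by over 1.5 times under some setting in 5 of 9 comparisons. With edgeR they were 14 in BMAL1 against CON, 53 in BOTH against CHREBP and 122 for the interaction, beside 68, 138 and 204 with DESeq2. With only the 2 groups fitted they were 144 in BMAL1 against CON and 80 in BOTH against CHREBP. With the replicate block they were 1188 in PAL against BSA, 186 in CON against PAL and 22 in BMAL1 against CON, beside 1828, 325 and 68. Among the 9 genes, the replicate block left 1 called in the likelihood ratio test, fitting all 24 libraries gave 1 in BMAL1 against CON, and summing *Abca8a* and *Abca8b* left 0 for the interaction.

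Leaving out 1 library at a time gave 180 to 343 genes called in CON against PAL, 16 to 107 in BMAL1 against CON, 56 to 217 in BOTH against CHREBP and 104 to 291 for the interaction. The lowest count was without CON replicate 3 in CON against PAL, BMAL1 against CON and the interaction, and without CHREBP replicate 3 in BOTH against CHREBP. The highest in BMAL1 against CON was without CON replicate 1, and in BOTH against CHREBP without BOTH replicate 4. It gave 0 to 1 of the 9 genes in BMAL1 against CON and 0 to 3 in the likelihood ratio test.

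Leaving out 1 library at a time turned the sign only of log2 fold changes that were not called. The range of the log2 fold change over these fits is given for each such gene. In PAL against BSA it was -0.28 to 0.0046 for *Abca5*. In CON against PAL it was -0.090 to 0.47 for *Mylip*. In BMAL1 against CON it was -0.20 to 0.041 for *Abca8a*, -0.078 to 0.025 for *Nr1h2* and -0.13 to 0.13 for *Mylip*. In CHREBP against CON it was -0.21 to 0.14 for *Abca1*, -0.15 to 0.14 for *Mylip* and -0.013 to 0.094 for *Scarb1*. In BOTH against CON it was -0.25 to 0.068 for *Abca8a*, -0.046 to 0.093 for *Nr1h2* and -0.11 to 0.10 for *Scarb1*. In BOTH against CHREBP it was -0.15 to 0.17 for *Abca8a*, -0.19 to 0.027 for *Abca5*, -0.11 to 0.029 for *Nr1h2*, -0.11 to 0.064 for *Nr1h3* and -0.14 to 0.068 for *Scarb1*. In BOTH against BMAL1 it was -0.18 to 0.14 for *Abca8a* and -0.012 to 0.13 for *Nr1h2*. For the interaction of *Bmal1* and *Chrebp* esiRNA it was -0.079 to 0.24 for *Abca8a* and -0.076 to 0.064 for *Nr1h2*.

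Replicate numbers did not pair the libraries. Correlations of same-numbered libraries averaged between -0.07 and 0.11 over the comparisons, and in none did every library correlate best with its own number. Under the replicate block, *Abca1* in PAL against BSA had a log2 fold change of -0.92 (DESeq2 *Padj* = 0.172), and in the likelihood ratio test *Abca1* (DESeq2 *Padj* = 0.104) and *Abca5* (0.127) were no longer called. The log2 fold change of *Mylip* in CHREBP against CON was 0.0047 under it, reversed in sign from -0.0068. The causes of these changes were not tested. Low counts limit *Abca1*, *Abca5* and *Mylip*. Protein identity was planned and not run, since no protein sequences were used here.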
